A study of Mus musculus with 8 samples.

Results

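Lysosome and antigen processing genes were compared between light zone and dark zone germinal centre B cells of the mouse. The set held 46 of the 18193 genes that the array named: 26 chosen by name (cathepsins and other hydrolases, their cofactors, lysosomal membrane proteins, the thiol reductase Ifi30 and the transcription factors Tfeb and Tfe3) and all 20 genes whose symbol starts with Atp6v, the subunits of the proton pump V-ATPase. Each gene was read from its brightest probe set, the one with the highest mean over 8 arrays, and no gene was left out for a low value. Light zone cells were represented by 4 arrays and dark zone cells by 4 arrays. All cells came from lymph nodes of C57BL/6 mice that had received NP-KLH in alum under the skin 12 days earlier, and were sorted as germinal centre B cells by the gate B220+CD38-CD95+. Sex, age and any pooling of animals were not given in the sources used here, and the arrays are labelled as biological replicates.

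Germinal centre B cells move between a dark zone, where they divide and mutate their antibody genes, and a light zone, where they take up antigen through the B cell receptor and present it to helper T cells. The antigen is broken down in acidified late endosomes and lysosomes. V-ATPase pumps protons into these organelles, cathepsins and asparagine endopeptidase cut the proteins, Ifi30 reduces their disulfide bonds, and the peptides are loaded on MHC class II. Tfeb and Tfe3 are related transcription factors that bind the E-box CACGTG in promoters of many lysosomal genes and enter the nucleus when the kinase mTORC1 is inactive.

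By the labels, light zone cells were gated as CXCR4hi/CD83lo and dark zone cells as CXCR4lo/CD83hi, the reverse of the usual definition. The mRNA followed the zone names: Cd83 intensity was 7382 ± 195 in light zone arrays and 1478 ± 111 in dark zone arrays, and Cxcr4 intensity was 803.9 ± 39.3 in light zone arrays and 1571 ± 125 in dark zone arrays (SD, n = 4 each). Groups were taken from the sample titles, so every direction below rests on those names. Of 5 B cell genes with a value, Ms4a1 and Cd79b were bright in both zones. Cd79a (368.6 in light zone arrays, 352.7 in dark zone arrays) and Pax5 (226.4 and 264.1) were dimmer. Ptprc was higher in the light zone by 0.21 on the log2 scale, and none was higher in the dark zone. Of 5 germinal centre genes with a value, Gcsam (-1.48), Mki67 (-0.53) and S1pr2 (-0.26) were higher in the dark zone. Fas was higher in the light zone (0.23), and Bcl6 did not pass (-0.14). Array medians over all probe sets lay between 27.33 and 28.13 intensity units. Pairs of arrays correlated at 0.995 to 0.997 within a zone and 0.9739 to 0.9799 between zones. These correlations were taken over the 10547 named genes whose level was above the median of all probe sets.

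Among markers of other cells, 9 of 14 macrophage genes with a value were below 27.78 intensity units, the median of all probe sets, and 5 of the 14 were higher in the dark zone, with Lyz2 furthest. Lyz2 intensity was 43.0, 40.7, 37.7 and 89.1 in light zone arrays 1 to 4, against 128.2, 461.4, 465.5 and 824.2 in dark zone arrays 1 to 4. Lyz1, a related lysozyme gene outside the list, was at 46.2 ± 29.5 in light zone arrays and 608.1 ± 411 in dark zone arrays (SD, n = 4 each). The summed macrophage list was 353.4 to 412.7 in light zone arrays and 463.4 to 1194 in dark zone arrays. Without Lyz2 the sum was 312.7 to 331.0 in light zone arrays and 331.0 to 369.6 in dark zone arrays. Cd68, a macrophage marker that is itself a lysosomal membrane protein, went the other way and was higher in the light zone by 0.40 on the log2 scale. All 6 neutrophil genes with a value and 5 of 8 T cell genes were below the median level, although Il7r and Thy1, both among those 5, were higher in the light zone by 0.32 each. No dendritic cell (7 with a value) or follicular stroma (7) gene passed the test. Of 6 plasma cell genes, 3 were higher in the light zone, with Irf4 furthest at 2.03. Of these 3, 1 was below the median level. Jchain, the brightest of the 6, was at 8192 in light zone arrays and 9095 in dark zone arrays and did not pass (-0.15). No array was at 0 for any of these genes. In bulk samples a larger share of one cell type and more RNA per cell cannot be told apart, and the part of other cells in the results was not tested.

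Most of the genes that passed the test were higher in the light zone, led by the thiol reductase Ifi30, the hydrolase subunit Hexa and the progranulin gene Grn, and most V-ATPase subunits did not pass. Of the 46, 20 passed toward the light zone (43.5%) and 4 toward the dark zone (8.70%), at an adjusted p under 0.05 in limma's moderated test with Benjamini-Hochberg adjustment over all 18193 genes. Over all named genes, 14.3% passed toward the light zone and 11.4% toward the dark zone (25.7% in either direction), and among the 10547 named genes above the median level the shares were 23.1% and 17.0% (40.1% in either direction). The 46 included 39 genes above that level and 7 below it. Their median difference, light zone minus dark zone log2 intensity, was 0.13, against -0.02 over all named genes. Without the array of each zone with the highest Lyz2, 14 of the 46 passed toward the light zone and 3 toward the dark zone. Fewer of all named genes passed in that smaller fit too, in both directions. The cause of the lower counts was not tested.

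Outside V-ATPase, 16 of 26 genes passed toward the light zone, 3 passed toward the dark zone and 7 did not pass, with a median difference of 0.29. Of the 20 V-ATPase genes, 4 were higher in the light zone (20.0%), 1 passed toward the dark zone and 15 did not pass, with a median of 0.00, a share that lay near the background. Calls of at least 1.5-fold toward the light zone were made for 3 of the 46: Ifi30, Hexa and Grn. The share was 3.77% of all named genes and 6.18% of those above the median level. Toward the dark zone such a call was made for 1 of the 46, Scarb2, against 2.33% and 3.86%. Both counts lay near these shares. The light zone and dark zone arrays did not overlap for 22 of the 46 genes (47.8%), against 27.4% of all named genes and 41.3% of those above the median level. The 22 genes that did not pass had differences between -0.17 and 0.16.

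**Figure D1:**
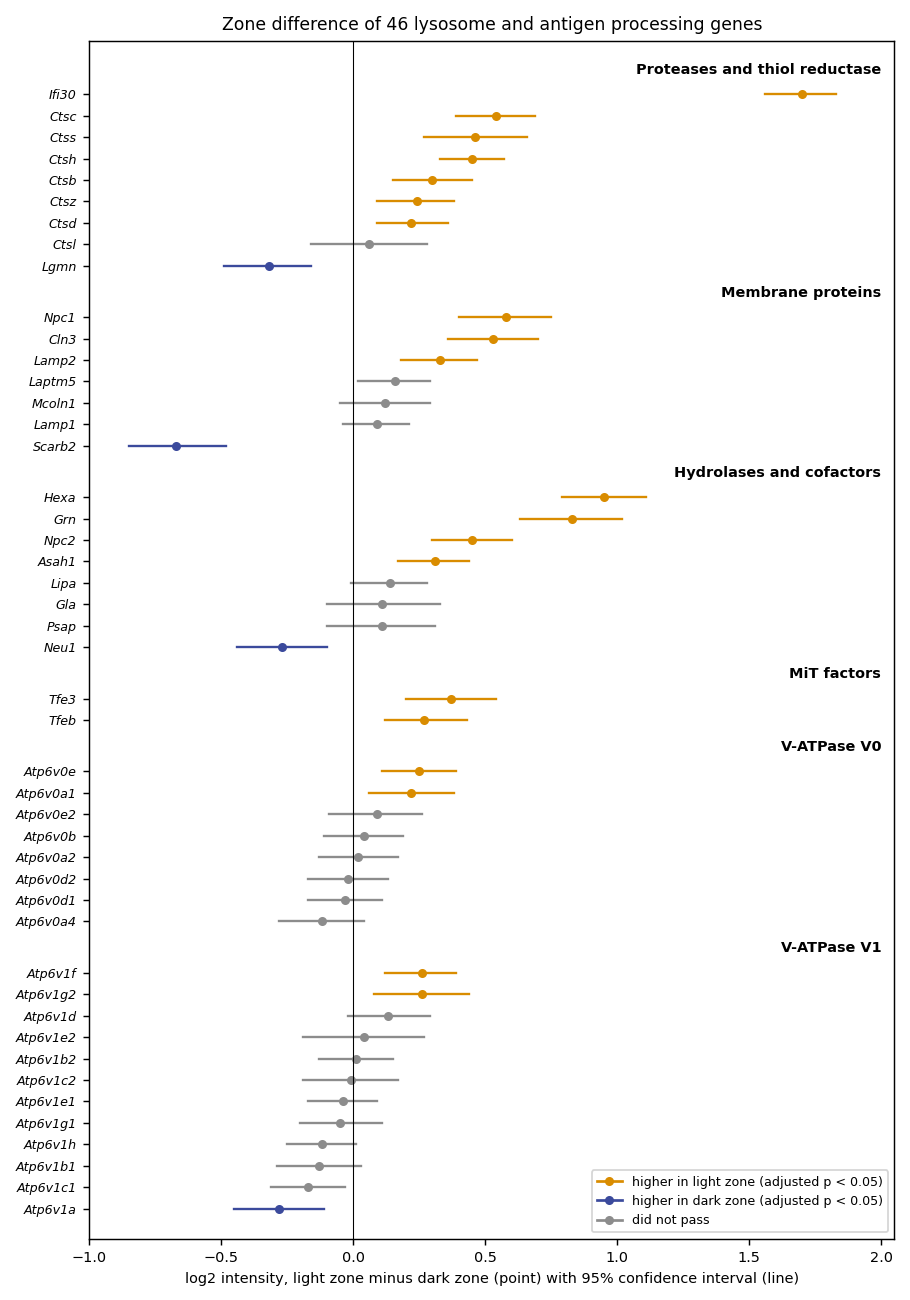
Difference in log2 intensity, light zone minus dark zone, for the 46 genes by role (points), with the 95% confidence interval of limma's fit (lines; n = 4 arrays per zone). Orange genes passed the test toward the light zone, blue genes toward the dark zone and grey genes did not pass; Ifi30 stands furthest to the right at 1.70 and Scarb2 furthest to the left at -0.67, while most V-ATPase subunits lie close to 0.

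**Figure D2:**
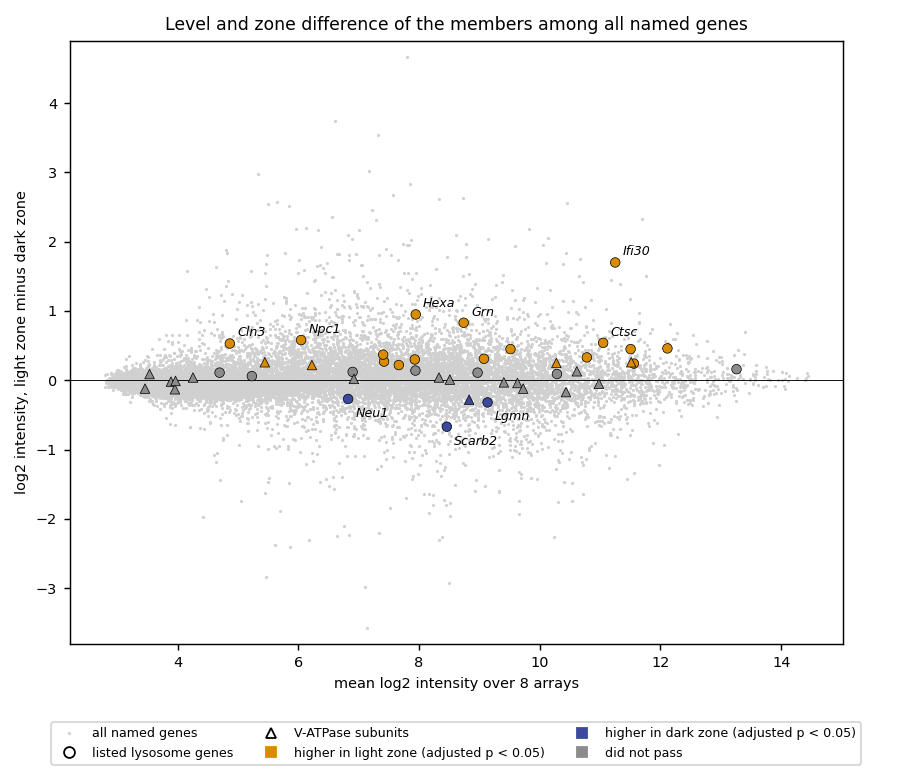
Mean log2 intensity over 8 arrays (x axis) and the log2 difference between light zone and dark zone (y axis) for all 18193 named genes (grey dots), the 26 genes chosen by name (circles) and the 20 V-ATPase subunits (triangles), coloured by the outcome of the test. The genes that passed lie in the middle and upper part of the intensity range, and all of the differences of the 46 genes are small beside the widest ones on the array, which run from -3.58 to 4.67. The lysozyme gene Lyz1 lies at -3.58.

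Of 9 genes for proteases and the thiol reductase, 7 were higher in the light zone, 1 passed toward the dark zone and 1 did not pass. Ifi30, the lysosomal thiol reductase that opens disulfide bonds in antigens, had intensities of 4495, 4175, 4300.1 and 4597 in light zone arrays 1 to 4, against 1364, 1261, 1396 and 1388 in dark zone arrays 1 to 4. The lowest light zone array was far above the highest dark zone array. The difference was 1.70 ± 0.06 (SE) on the log2 scale, a 3.25-fold higher level in the light zone (adjusted p = 3.8e-10, limma), and Ifi30 was the gene of the 46 with the widest difference.

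Cathepsins split into endopeptidases, which cut within a chain, and exopeptidases, which trim its ends. Ctsc (cathepsin C, an exopeptidase that removes dipeptides) had 2417, 2616, 2631 and 2572 in light zone arrays, against 1958, 1738, 1631 and 1728 in dark zone arrays. All light zone arrays were above all dark zone arrays, with a difference of 0.54 ± 0.07 (adjusted p = 4.1e-05, limma). The exopeptidases Ctsh, an aminopeptidase, and Ctsz, a carboxypeptidase, were higher in the light zone by 0.45 and 0.24, also without overlap.

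Among the endopeptidases, Ctss (cathepsin S, which makes the late cuts in the invariant chain in B cells) had 5489, 5193, 5060.2 and 5094 in light zone arrays, against 3039.9, 4269, 4006 and 3895 in dark zone arrays. The zones did not overlap, and dark zone array 1 was lower than the other dark zone arrays. The difference was 0.46 ± 0.09 (adjusted p = 0.0017, limma), and 0.36 without dark zone array 1. Macrophages express Ctss too, and their part in the difference was not tested.

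Ctsb (cathepsin B) was higher in the light zone by 0.30 and Ctsd, the aspartic protease cathepsin D, by 0.22. Ctsd had 218.6, 228.6, 204.8 and 225.1 in light zone arrays, against 175.8, 194.8, 186.3 and 194.5 in dark zone arrays (adjusted p = 0.019, limma). These arrays did not overlap, but the Ctsd call was lost without light zone array 2 (0.20, adjusted p = 0.055, limma) or dark zone array 1 (0.19, adjusted p = 0.0515), and the Ctsz call without light zone array 4 (0.21, adjusted p = 0.0549) or dark zone array 3 (0.21, adjusted p = 0.0512). Ctsl, cathepsin L, the enzyme of invariant chain processing in thymic epithelium, was at 38.5 ± 4.30 in light zone arrays and 37.0 ± 5.13 in dark zone arrays (SD, n = 4 each), and its difference of 0.06 had a 95% interval from -0.16 to 0.28.

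Lgmn, the asparagine endopeptidase that activates cathepsins and makes early cuts in antigens, went the opposite way to the cathepsins that passed. It had 540.8, 516.5, 508.2 and 449.7 in light zone arrays, against 609.6, 687.6, 661.5 and 566.7 in dark zone arrays. Every light zone array was below every dark zone array, and the difference was -0.32 ± 0.08 (adjusted p = 0.0067, limma). Lgmn is also expressed in macrophages, and 5 of the 14 macrophage markers were higher in the dark zone, 1 in the light zone and 8 did not pass. Without the array of each zone with the highest Lyz2, the difference was again -0.32 (adjusted p = 0.011). In that fit Lyz2 was still higher in the dark zone arrays (128.2, 461.4 and 465.5) than in the light zone arrays (37.7 to 43.0). The part of macrophages in the Lgmn difference was not tested.

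**Figure D3:**
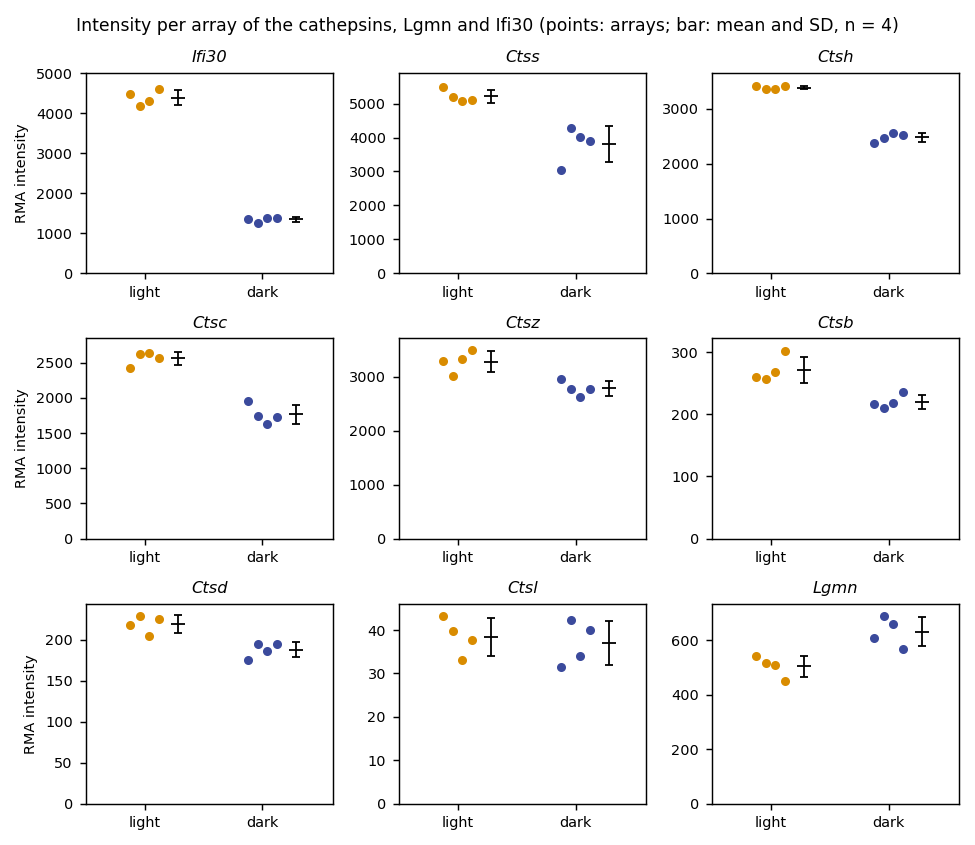
RMA intensity of Ifi30, 7 cathepsins and Lgmn on each of 4 light zone arrays (orange) and 4 dark zone arrays (blue), with the mean and SD beside each group; every y axis starts at 0. The zones are apart for Ifi30, for the cathepsins other than Ctsl, and in the opposite direction for Lgmn.

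Of 8 other hydrolases and their cofactors, 4 were higher in the light zone, 1 passed toward the dark zone and 3 did not pass. Hexa, the alpha subunit of beta-hexosaminidase, which breaks down gangliosides, had 366.7, 322.3, 324.2 and 360.5 in light zone arrays, against 197.4, 169.9, 170.5 and 173.4 in dark zone arrays. The zones were well apart, with a difference of 0.95 ± 0.07, or 1.93-fold (adjusted p = 3.1e-07, limma). Grn, the precursor of progranulin, which is delivered to lysosomes and cut there into granulins, had 507.6, 664.1, 563.2 and 556.3 in light zone arrays, against 291.7, 350.7, 296.5 and 352.1 in dark zone arrays. The difference was 0.83 ± 0.09, or 1.77-fold (adjusted p = 1.1e-05, limma).

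Npc2, the soluble protein that hands cholesterol to Npc1, was higher in the light zone by 0.45, and Asah1, acid ceramidase, by 0.31, both without overlap between zones. Neu1, the sialidase that works in a complex with cathepsin A, had 106.5, 110.2, 95.5 and 101.5 in light zone arrays, against 143.7, 121.0, 114.7 and 120.4 in dark zone arrays. Its difference of -0.27 ± 0.08 (adjusted p = 0.021, limma) was the smallest call toward the dark zone. The Neu1 call was lost without light zone array 3 (-0.23, adjusted p = 0.068, limma), light zone array 4 (-0.26, adjusted p = 0.0503) or dark zone array 1 (-0.20, adjusted p = 0.0541). Lipa (acid lipase, 0.14), Gla (alpha-galactosidase A, 0.11) and Psap (the precursor of the saposins, 0.11) did not pass, and the zones overlapped for all 3.

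Among 7 membrane proteins, 3 were higher in the light zone, 1 passed toward the dark zone and 3 did not pass. Npc1, which exports cholesterol from lysosomes, had 85.8, 71.3, 81.1 and 85.0 in light zone arrays, against 55.5, 47.0, 58.4 and 56.0 in dark zone arrays, a difference of 0.58 ± 0.08 (adjusted p = 0.00012, limma). Cln3, the protein mutated in juvenile Batten disease, had 32.9, 41.0, 33.8 and 33.2 in light zone arrays, against 23.4, 25.4, 25.5 and 23.0 in dark zone arrays, a difference of 0.53 ± 0.08 (adjusted p = 0.00016, limma). Neither gene overlapped between zones, and the dark zone values of Cln3 lay below the median probe set level.

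The abundant lysosomal membrane glycoproteins Lamp1 and Lamp2 gave different outcomes. Lamp2, which also serves chaperone-mediated autophagy, had 1873, 2201, 1898 and 1914 in light zone arrays, against 1593, 1573, 1519 and 1592 in dark zone arrays (difference 0.33 ± 0.07, adjusted p = 0.0021, limma). With the mean of its probe sets the Lamp2 difference was 0.17 and the call was lost (adjusted p = 0.0536), and of its 3 dimmer probe sets 1 passed (0.20) and 2 did not (0.14 and 0.01). Lamp1 had 1279, 1304.0, 1223 and 1338 in light zone arrays, against 1251, 1207, 1214 and 1169.8 in dark zone arrays. The Lamp1 arrays overlapped, and its difference of 0.09 had a 95% interval from -0.04 to 0.21 (adjusted p = 0.33, limma); whether the 2 genes differed from each other was not tested.

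Scarb2, the membrane receptor that carries beta-glucocerebrosidase to lysosomes, had the widest difference toward the dark zone. It had 289.4, 289.9, 247.9 and 293.0 in light zone arrays, against 507.0, 394.1, 461.3 and 420.5 in dark zone arrays. Every light zone array was below every dark zone array, and the difference was -0.67 ± 0.09, a 1.59-fold higher level in the dark zone (adjusted p = 4.4e-05, limma). Laptm5, a lysosomal protein of blood cells that lowers surface levels of the B cell receptor, was at 10367 ± 154 in light zone arrays and 9317 ± 558 in dark zone arrays (SD, n = 4 each); its arrays did not overlap, but the difference of 0.16 did not pass (adjusted p = 0.084, limma). It passed without dark zone array 4 (0.19, adjusted p = 0.0474, limma), but none of its dimmer probe sets passed (0.05, 0.02, -0.02 and -0.08). Mcoln1, the calcium channel of lysosomes, had a difference of 0.12 with overlap.

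**Figure D4:**
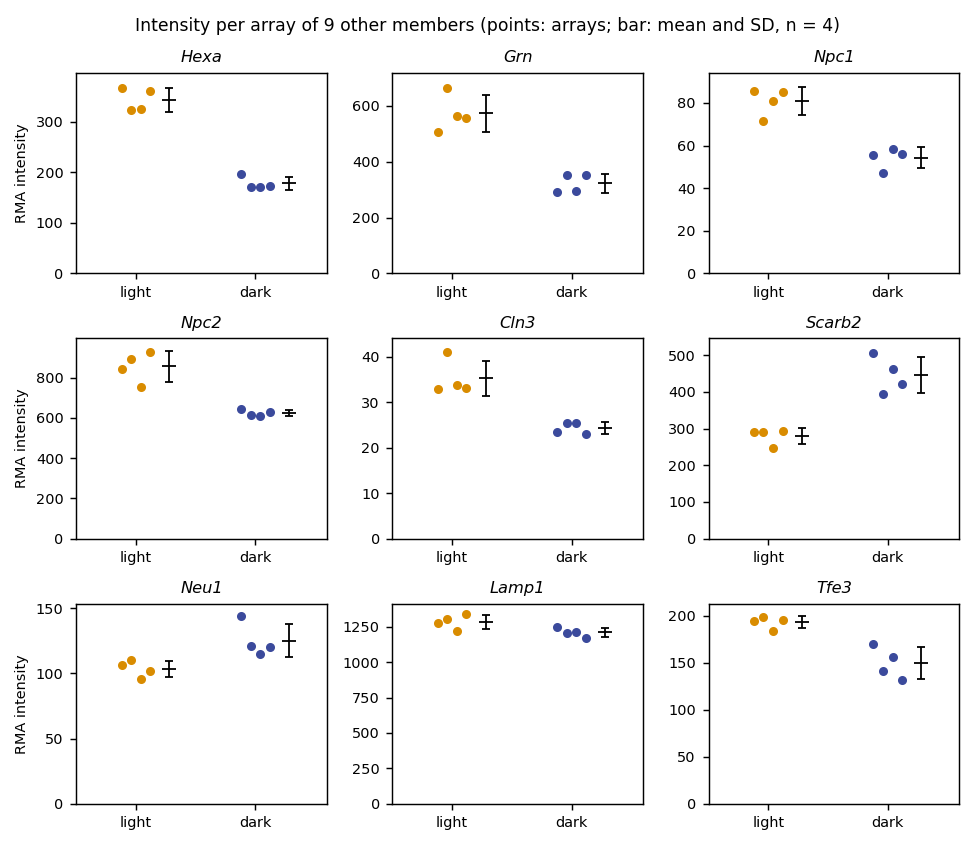
RMA intensity of 9 further genes on each of 4 light zone arrays (orange) and 4 dark zone arrays (blue), with the mean and SD beside each group; every y axis starts at 0. Hexa, Grn, Npc1, Npc2, Cln3 and Tfe3 are higher in the light zone, Scarb2 and Neu1 are higher in the dark zone, and Lamp1 overlaps.

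V-ATPase has a membrane part, V0, through which protons pass, and a cytosolic part, V1, which hydrolyses ATP. Of 8 V0 genes, Atp6v0e (0.25) and Atp6v0a1 (0.22) were higher in the light zone and 6 did not pass, with differences from -0.12 to 0.09. Of 12 V1 genes, Atp6v1f and Atp6v1g2 (0.26 each) were higher in the light zone, Atp6v1a was higher in the dark zone, and 9 did not pass, with differences from -0.17 to 0.13. Atp6v1a encodes the catalytic subunit and had 447.3, 393.1, 422.4 and 395.8 in light zone arrays, against 551.0, 500.7, 525.8 and 437.0 in dark zone arrays. Light zone array 1 lay above dark zone array 4, so the zones overlapped, and the difference was -0.28 ± 0.08 (adjusted p = 0.018, limma).

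The other subunits of the core pump did not pass. Atp6v1b2, the partner of the catalytic subunit in the ATPase head, had 366.5 ± 15.7 in light zone arrays and 363.7 ± 23.4 in dark zone arrays, and Atp6v0d1, which joins V0 to the central stalk, had 670.9 ± 32.8 in light zone arrays and 684.7 ± 29.8 in dark zone arrays (SD, n = 4 each). Their differences were 0.01, with a 95% interval from -0.13 to 0.15, and -0.03, with an interval from -0.17 to 0.11. In the same group were Atp6v0a2 (0.02), Atp6v0b (0.04), Atp6v1d (0.13), Atp6v1e1 (-0.04), Atp6v1g1 (-0.05), Atp6v1h (-0.12) and Atp6v1c1 (-0.17). The 6 subunits below the median level were Atp6v0a4, Atp6v0d2, Atp6v0e2, Atp6v1b1, Atp6v1c2 and Atp6v1e2, forms known mainly from kidney, osteoclasts, brain or testis, and none of them passed.

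Of the 5 V-ATPase calls, 3 were lost in fits that left out 1 array, and for these 3 the zones overlapped. The light zone count of 4 fell to 2 without light zone array 4, without dark zone array 1 or without dark zone array 4. It fell to 0 without the 2 arrays with the highest Lyz2 of their zones, a fit in which fewer of all named genes passed too. Atp6v1a was lost without light zone array 2 (-0.25, adjusted p = 0.0536, limma), light zone array 4 (-0.26, adjusted p = 0.052) or dark zone array 1 (-0.23, adjusted p = 0.0538). Atp6v0a1 was lost when light zone array 1, 3 or 4 or dark zone array 1 or 4 was left out (differences 0.18 to 0.22, adjusted p 0.079 to 0.11). Atp6v1g2 was lost when light zone array 2 or 4 or dark zone array 1, 2 or 4 was left out (0.20 to 0.26, adjusted p 0.067 to 0.097). Atp6v1c1, not called with all arrays, passed toward the dark zone without dark zone array 1 (-0.21, adjusted p = 0.032). Atp6v0e and Atp6v1f passed whichever single array was left out.

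Both transcription factors were higher in the light zone. Tfe3 had 194.4, 198.2, 183.5 and 195.3 in light zone arrays, against 169.7, 140.9, 156.0 and 131.2 in dark zone arrays (difference 0.37 ± 0.08, adjusted p = 0.0027, limma). Tfeb had 173.8, 190.4, 179.4 and 211.3 in light zone arrays, against 155.6, 154.5, 150.7 and 161.6 in dark zone arrays (0.27 ± 0.07, adjusted p = 0.0094). The zones overlapped for neither gene. These are mRNA levels, and the position of the proteins in the cell was not measured.

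Promoters were read for the E-box that both factors bind, in RefSeq windows of 300 bases (250 before to 50 after a listed start, build GRCm38.p6), which were at hand for 36 of the 46 genes; Ctsb, Ctsh, Npc1, Asah1, Atp6v0a2, Atp6v0d2, Atp6v1b2, Atp6v1c1, Atp6v1g1 and Atp6v1h had no entry. CACGTG, which reads the same on both strands, was in the window of 12 of the 36 (33.3%), against 8.09% of the 27025 genes with a window. The longer form TCACGTG or CACGTGA, which contains the first motif, was in 11 (30.6%), against 4.29%. The genes with an E-box did not share a direction: 4 were higher in the light zone, 2 passed toward the dark zone and 6 did not pass, with a median difference of 0.10, while of the 24 without one, 12 were higher in the light zone, 2 passed toward the dark zone and 10 did not pass, with a median of 0.19. A motif match is a description of the sequence, not of binding.

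The 250 bases before the start are printed for 6 of the 12, chosen to set the outcomes side by side: higher in the light zone (Ifi30, Cln3, Ctsd), no call with 4 E-boxes (Lamp1), and higher in the dark zone (Lgmn, Atp6v1a). Each runs 5′ to 3′ on the strand of the gene and ends at the base before the start, and capitals mark CACGTG. For Cln3 and Lgmn the window is 1 of 2 listed starts.
Ifi30, chr8:70766664-70766913, minus strand: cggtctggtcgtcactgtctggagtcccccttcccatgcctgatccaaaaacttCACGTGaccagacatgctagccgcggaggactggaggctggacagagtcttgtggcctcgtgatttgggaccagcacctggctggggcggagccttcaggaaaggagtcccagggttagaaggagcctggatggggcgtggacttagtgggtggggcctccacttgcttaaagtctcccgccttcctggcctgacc
Cln3, chr7:126583237-126583486, minus strand: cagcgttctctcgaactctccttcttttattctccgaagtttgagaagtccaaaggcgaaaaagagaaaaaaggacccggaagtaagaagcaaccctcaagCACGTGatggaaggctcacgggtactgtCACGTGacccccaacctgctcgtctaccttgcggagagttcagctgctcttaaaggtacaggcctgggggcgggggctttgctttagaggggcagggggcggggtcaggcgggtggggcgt
Ctsd, chr7:142387828-142388077, minus strand: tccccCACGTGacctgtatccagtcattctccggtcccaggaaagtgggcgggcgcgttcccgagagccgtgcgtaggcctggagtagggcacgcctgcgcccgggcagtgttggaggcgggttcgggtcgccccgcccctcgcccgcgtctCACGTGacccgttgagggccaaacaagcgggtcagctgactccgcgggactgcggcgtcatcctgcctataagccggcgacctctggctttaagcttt
Lamp1, chr8:13158911-13159160, plus strand: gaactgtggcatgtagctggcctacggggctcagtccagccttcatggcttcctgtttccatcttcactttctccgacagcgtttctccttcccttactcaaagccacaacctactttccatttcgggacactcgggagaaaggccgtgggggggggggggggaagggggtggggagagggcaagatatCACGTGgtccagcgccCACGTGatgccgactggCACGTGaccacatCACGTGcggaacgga
Lgmn, chr12:102439093-102439342, minus strand: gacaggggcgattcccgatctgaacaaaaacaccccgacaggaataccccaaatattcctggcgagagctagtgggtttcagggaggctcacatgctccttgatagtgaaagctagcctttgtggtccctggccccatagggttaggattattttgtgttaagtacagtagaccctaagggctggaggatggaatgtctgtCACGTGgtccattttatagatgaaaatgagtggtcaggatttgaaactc
Atp6v1a, chr16:44139260-44139509, minus strand: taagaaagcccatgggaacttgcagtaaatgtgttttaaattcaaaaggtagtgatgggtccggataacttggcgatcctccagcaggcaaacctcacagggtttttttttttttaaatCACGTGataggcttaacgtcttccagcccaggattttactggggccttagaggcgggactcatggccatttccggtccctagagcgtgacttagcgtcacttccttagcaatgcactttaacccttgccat

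In these windows the E-box of Ifi30 starts 196 bases before the start of the gene, those of Cln3 at 149 and 121 bases, those of Ctsd at 245 and 98 bases, and those of Lamp1 at 61, 45, 28 and 15 bases. The E-box of Lgmn lies at 49 bases and that of Atp6v1a at 131 bases. Lamp1, with the most E-boxes of the 36 genes with a window, differed by 0.09 between zones, and Ifi30, with 1, differed by 1.70. These are 2 picked genes, and a link between E-boxes and the zone differences was not tested.

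Several genes were covered by more than 1 probe set, and the dimmer ones were read as a check on the choice of the brightest. Of the 46 genes, 27 had 56 dimmer probe sets between them. The other 19 had 1 probe set each, so the check could not be made for them. Ifi30, Hexa, Npc1, Ctss, Ctsd, Lgmn, Tfeb and Tfe3 were among these. The 12 called genes with several probe sets had 25 dimmer ones. Of these 25, 14 passed in the same direction, 1 passed in the opposite direction and 10 did not pass. The fit was over all 45037 probe sets, of which 21.8% passed. Grn repeated with differences of 0.92 and 1.11, Ctsh with 0.81, Ctsc with 0.74 and 0.36, Scarb2 with -0.89 and Atp6v1a with -0.51.

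Ctsb was the gene with a call in the opposite direction: its brightest probe set gave 0.30 and another gave -0.34 (adjusted p = 0.015, limma). The 3 other probe sets of Ctsb did not pass, so its direction depends on the probe set. No dimmer probe set of Atp6v0a1 passed (0.19, -0.07 and 0.01). With the mean of its probe sets Atp6v0a1 was at 0.09 and not called (adjusted p = 0.26, limma). Among genes that were not called, 6 of 31 dimmer probe sets passed. Psap had one at -0.50, Gla one at -0.26, Mcoln1 one at 0.42 and Atp6v1b2 one at 0.30. Lipa had one at -0.41 beside one at 0.24. Those of Gla and Mcoln1 were dim: log2 3.5 and 4.78 in light zone arrays, 3.76 and 4.36 in dark zone arrays. For all the genes with such a probe set, the absence of a call holds for the brightest probe set alone.

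**Figure D5:**
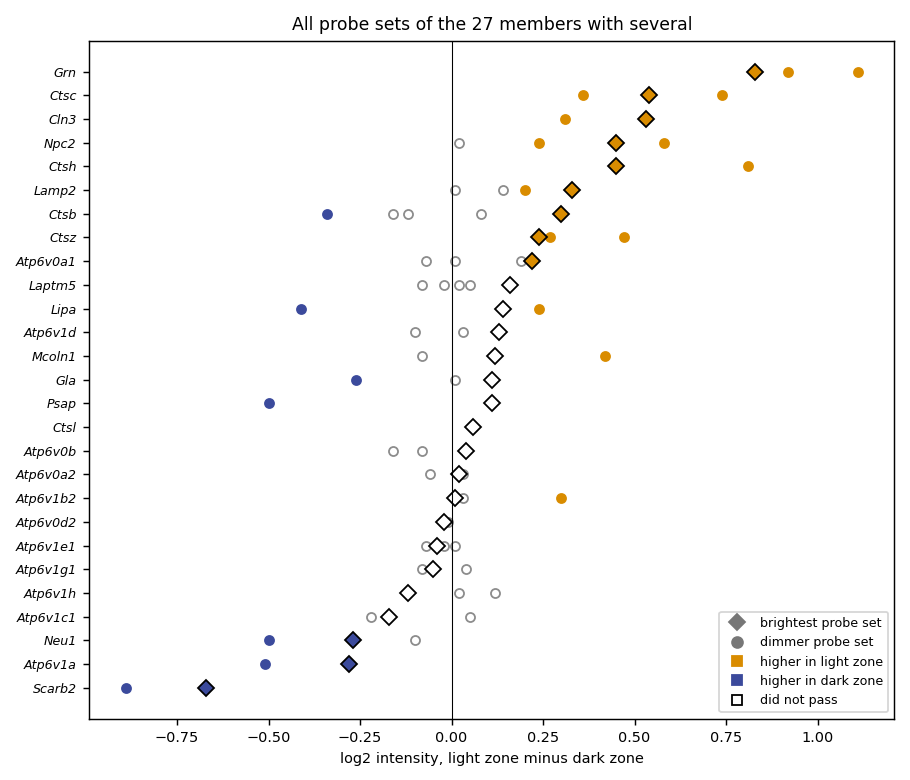
Difference in log2 intensity, light zone minus dark zone, for every probe set of the 27 genes with several: the brightest (diamonds) and the dimmer ones (circles), filled where the probe set passed the test. Grn, Ctsc, Ctsh and Ctsz keep to the right of 0 and Scarb2, Neu1 and Atp6v1a to the left, while probe sets of Ctsb and Lipa pass on both sides.

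Further genes of the pathway were read from 7 lists, in which 53 of 135 genes passed toward the light zone, 14 passed toward the dark zone and 68 did not pass, with a median difference of 0.13. These shares were 39.3% and 10.4%, against 14.3% and 11.4% of all named genes and 23.1% and 17.0% of those above the median level, where 119 of the 135 lay. Of 41 other lysosomal hydrolases, 21 passed toward the light zone (51.2%) and 3 toward the dark zone (7.32%), with a median of 0.26. Plbd1, a phospholipase B-like protein, was higher in the light zone by 1.62, the dipeptidyl peptidase Dpp7 by 1.16 and Ctsa, cathepsin A, by 1.00. Toward the dark zone were Pcyox1, prenylcysteine oxidase, at -1.06, and Ctsk and Pla2g15 at -0.23 each. Ctsk was below the median level, at 16.5 in light zone arrays and 19.3 in dark zone arrays. The Ctsk call was lost without light zone array 1 or 4 (-0.21 each, adjusted p = 0.0526 and 0.0509, limma). The Pla2g15 call was lost without light zone array 2 or 3 or dark zone array 1, 3 or 4 (-0.22 to -0.19, adjusted p 0.060 to 0.084).

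Of 32 other lysosomal membrane proteins, 8 passed toward the light zone and 3 toward the dark zone (9.38%), with a median of 0.09. The light zone share was close to that of all named genes above the median level, as 28 of the 32 were. Slc15a3, a transporter of peptides and histidine, was higher in the light zone by 1.55, Glmp by 0.70 and Pip4p1, a phosphoinositide phosphatase, by 0.53. Mcoln2, a relative of Mcoln1, was higher in the dark zone at -1.40, followed by Laptm4a at -0.40 and Slc11a1, a metal transporter of phagocytes, at -0.30; Slc11a1 was below the median level.

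Genes for sorting enzymes to lysosomes and for fusion of the organelles gave 6 of 22 toward the light zone (27.3%) and 4 toward the dark zone (18.2%), with a median of 0.09. All 22 were above the median level, and both shares were close to those of all named genes there. With the brightest probe set of the plain type the light zone count was 3. Gnptab, which starts the mannose 6-phosphate tag, was higher in the light zone by 0.71, and M6pr, a receptor for that tag, and Vps41, a subunit of the HOPS tethering complex, by 0.45 each. All 3 depended on the probe set: Gnptab was at 0.16 (adjusted p = 0.21, limma) and Vps41 at -0.11 with the brightest probe set of the plain type, and M6pr was at 0.17 (adjusted p = 0.071) with the mean of all its probe sets. Ap3s1 (-0.42), Ap3b1 (-0.37) and Ap3m1 (-0.22), 3 subunits of the AP-3 sorting adaptor, were higher in the dark zone, while its subunit Ap3d1 did not pass (-0.01). The Ap3m1 call was lost without light zone array 3 or 4 or dark zone array 2 (-0.21 to -0.20, adjusted p 0.0515 to 0.056, limma).

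Of 11 V-ATPase partners, 5 passed toward the light zone (45.5%) and none toward the dark zone (median 0.11): Dmxl1, a subunit of the assembly complex, by 0.54, Rogdi by 0.46 and Vma21, an assembly factor, by 0.31 among them. Without light zone array 2 the count was 3, and Vma21 was lost (0.26, adjusted p = 0.059, limma). The count was also 3 with the brightest probe set of the plain type, and 2 without the array of each zone with the highest Lyz2. With the mean of its probe sets Vma21 was at -0.04. Of 14 genes that control Tfeb or belong to its family, 3 passed toward the light zone (21.4%) and 4 toward the dark zone (28.6%). The dark zone count was 2 without dark zone array 3, without the array of each zone with the highest Lyz2, or among genes above the median level alone. Lamtor4, of the Ragulator complex, was higher in the light zone by 0.46, Fnip1 by 0.34 and Rragd by 0.22, and Fnip2 (-0.43), Zkscan3 (-0.28) and Tfec (-0.26) went toward the dark zone. Of these, Rragd, Fnip2 and Tfec were below the median level. Rragd was called in none of the fits that left out 1 array other than dark zone array 3 (0.18 to 0.24, adjusted p 0.059 to 0.14), and Tfec was lost without light zone array 1 or dark zone array 1 or 3 (-0.23 to -0.21, adjusted p 0.056 to 0.068).

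Of 6 cystatins, the inhibitors of cathepsins, Cstb was higher in the light zone by 0.20 (1 of 6, 16.7%) and 5 did not pass. The Cstb call was lost without light zone array 2 or 4 or dark zone array 1 or 2 (0.17 to 0.20, adjusted p 0.062 to 0.080, limma). All 9 genes with a value of MHC class II and its peptide loading were higher in the light zone (median 0.43), with Ciita, their transcriptional activator, at 1.15, H2-Oa at 0.98 and H2-DMb2 at 0.82.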

How the data were processed

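RNA was extracted with Trizol and labelled with biotin for Affymetrix arrays, per the labels' protocols. The authors deposited 1 table of intensity values for 45037 probe sets on 8 arrays, made with RMA per the submitters' processing notes. The deposited intensities are on a linear scale, and log2 was taken with no pseudocount. Arrays carry no read depth, and their number limits the precision. Probe sets were named from GEO's platform annotation: 34945 had 1 gene symbol, 932 had several and 9160 were unnamed, and 18193 genes resulted, each read from its brightest single-symbol probe set. The filter on low values was tried only as an alternative.

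Differences are light zone minus dark zone from limma 3.58.1 (lmFit and eBayes, R 4.3.3), with Benjamini-Hochberg adjustment over all 18193 genes and a threshold of 0.05. The fit was tested on simulated data. The labels call the arrays biological replicates but do not name the animals behind them, so p-values measure the spread between these arrays, which may be technical.

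The members and the gene lists were chosen with earlier results of these data known, so a list's direction is not independent evidence. All 46 members are named; values per array are given for members past the threshold with a difference of at least 0.5, for Tfeb, Tfe3, Lamp1, Lamp2 and Ctsd, and, added after the values were seen, for Ctss, Lgmn, Neu1 and Atp6v1a. Of each other list, up to 3 called genes with the widest difference in each direction are named. Of the markers, Cd68, Il7r, Thy1, Irf4, Cd79a, Pax5, Gcsam, S1pr2, Bcl6 and Lyz1 were named after their values were seen, and Ap3d1 likewise. Replicate numbers are shared between the zones, but the labels do not say that they mark shared animals. The main fit was planned without a block, and the blocked fit is an alternative. All 4 same-numbered pairs correlated positively, 1 of them at under 0.1, and whether the arrays are paired is not known. Promoter windows came from RefSeq, build GRCm38.p6. Atp6v0c has no probe set with a single symbol and was not analysed here.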

Additional observations from a re-analysis of the deposited data

Results flagged for a closer look

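Single arrays stood apart from the other 3 of their zone, by Dixon's 95% criterion, in 7 of 92 groups of 4 arrays, where chance alone gives about 1 in 20. In light zone array 2, Lamp2 was at 2201 (others 1873 to 1914) and Cln3 at 41.0 (others 32.9 to 33.8). In light zone array 3, Scarb2 was at 247.9 (others 289.4 to 293.0), and in light zone array 4, Atp6v0e was at 1466 (others 1300.4 to 1327). In dark zone array 1, Hexa was at 197.4 (others 169.9 to 173.4) and Atp6v1c1 at 1345 (others 1502 to 1517.0). In dark zone array 2, Atp6v0a4 was at 12.1 (the others all 11.3), near the floor of the array. Among these, Lamp2, Cln3, Scarb2, Hexa and Atp6v0e passed in every fit that left out 1 array (Lamp2 not with the mean of its probe sets), and Atp6v1c1, of the fits that left out 1 array, passed in the one without dark zone array 1.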

How the results depend on the processing

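Of the 24 called genes, 14 kept direction and call in all 21 alternatives that gave them a value, and 7 of the 22 that were not called kept theirs. The fits called 17 to 26 of the 46, against 24. At an adjusted p under 0.01 the counts toward the dark zone were 1298 of all named genes (2065 at 0.05), 2 of the 46 (4 at 0.05) and 6 of the other pathway genes (14 at 0.05). Leaving out 1 array gave 17 to 19 of the 46 toward the light zone and 2 to 4 toward the dark zone, the 2 without light zone array 4; over all genes it gave 2322 to 2479 and 1693 to 1945, and over the other pathway genes 47 to 54 and 11 to 14. The fit without the highest Lyz2 array of each zone, chosen after seeing the data, called 17. Fewer of all named genes passed in that fit too.

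With the mean of a gene's probe sets, 3 calls of the 46 were lost: Atp6v0a1, Ctsb and Lamp2. Signs turned in that fit for Ctsb (-0.05), Psap (-0.19), Lipa (-0.01), Gla (-0.04), Atp6v0a2 (-0.01), Atp6v0b (-0.07), Atp6v1h (0.01) and Vma21 (-0.04). The Atp6v0a1 call was also lost with quantile normalization (adjusted p = 0.083, limma) and with limma's intensity trend (adjusted p = 0.064). With the brightest probe set of the plain type, for which 37 of the 46 had a value, signs turned for Lipa (-0.41), Laptm5 (-0.08), Atp6v1c1 (0.05), Atp6v1g1 (0.04) and Vps41 (-0.11). Signs near 0 turned with arrays centred on the median for Atp6v0d2 (0.0024) and Atp6v1c2 (0.01), and with quantile normalization for Atp6v0a2 (-0.03), Atp6v0d2 (0.01) and Atp6v1c2 (0.02). Without the highest Lyz2 arrays they turned for Atp6v1b2 (-0.03), Atp6v1c2 (0.07), Atp6v1e2 (-0.03) and Gla (-0.0048). Leaving out 1 array also turned the sign of uncalled genes, whose differences then ranged as follows: Atp6v0a2 from -0.03 to 0.06, Atp6v0d2 from -0.05 to 0.04, Atp6v1b2 from -0.02 to 0.05, Atp6v1c2 from -0.06 to 0.04, Atp6v1e2 from -0.03 to 0.13 and Ctsl from -0.01 to 0.13. The cause was not tested.

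Same-numbered arrays of the 2 zones deviated from their zone means with correlations of 0.1259, 0.189, 0.0596 and 0.2434; 1 of the 4 was under 0.1, and dark zone array 3 correlated best with light zone array 1 (0.0909). The 3 correlations over 0.1 were the highest of all 16 pairs. With the replicate number as a block, 19 of the 46 passed toward the light zone and 4 toward the dark zone, and Atp6v0a1 (adjusted p = 0.0531, limma) and Rragd (adjusted p = 0.062) were lost.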
